A study of Mus musculus with 12 samples.

Results

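Tight junction and epithelial adhesion genes were followed in RNA from sorted mouse alveolar type 2 (AT2) cells. The set held 10 genes, *Cldn3*, *Cldn4*, *Cldn7*, *Cldn18*, *Ocln*, *Marveld2*, *Tjp1*, *F11r*, *Cdh1* and *Epcam*, which were matched by gene name among 21878 listed genes. All 10 passed the filter on low values, as did 61 of 85 other junction and adhesion genes that were described beside them.

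The 4 groups held 3 libraries each, all from C57BL/6 mice that carried floxed *Atg5* (Atg5 f/f), the gene of an enzyme complex that builds autophagosomes. AT2-PBS and AT2-BLM came from Atg5 f/f mice given PBS or 2 U/kg of bleomycin (BLM), which damages alveolar epithelial cells and is used to model lung fibrosis, and the labels call both wild type. Atg5-/- AT2-PBS and Atg5-/- AT2-BLM came from Nkx2.1Cre;Atg5 f/f mice given PBS or BLM. The study's methods name male mice, 8 to 12 weeks old, for its BLM experiments, and cells were taken at day 14, a day that the study's text does not state for Atg5-/- AT2-PBS. Nkx2.1 drives Cre in the lung epithelium from early development on, so *Atg5* was deleted in airway as well as alveolar epithelium and long before the injury. The 3 libraries of a group are called biological replicates, with no statement on whether a library is 1 animal or a pool. The sort kept EpCAM+ cells that lacked CD31, CD34, CD45, CD24 and Sca-1, so the product of *Epcam*, a member of the set, was itself a gate.

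Tight junctions seal the space between neighbouring epithelial cells near their apical side. Claudins form the strands that set which ions pass, occludin and tricellulin are companions of the strands at contacts of neighbouring cells and at corners where cells meet, junctional adhesion molecule A lies beside them, and the scaffold ZO-1 ties the strands to actin. E-cadherin holds the adherens junction underneath, and EpCAM is an adhesion protein of the lateral membrane that binds and stabilizes claudins. In the alveolus these junctions keep fluid out of the airspace, and claudin-18, claudin-3 and claudin-4 are its best known claudins.

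*Cldn4* and *Cldn3* are neighbours on mouse chromosome 5. In the GENCODE annotation of mm9 (NCBIM37), *Cldn4* lies at chr5:135420996-135422804 on the minus strand and *Cldn3* at chr5:135462084-135463342 on the plus strand. The 39.3 kb between them hold 0 annotated protein-coding genes. The promoters of this pair are shown because the transcripts of these neighbours gave unlike values in injured cells. Both sequences run 5′ to 3′ over 300 bases, from 250 bases before the RefSeq transcription start (GRCm38.p6) to 50 bases after it. Each matched the mm9 genome exactly and once, at chr5:135422755-135423054 on the minus strand for *Cldn4* and at chr5:135461834-135462133 on the plus strand for *Cldn3*. Capitals mark TGANTCA, the letters bound by AP-1, and CAGGTG, the E-box bound by the Snail and Zeb repressors, on either strand.
Cldn4: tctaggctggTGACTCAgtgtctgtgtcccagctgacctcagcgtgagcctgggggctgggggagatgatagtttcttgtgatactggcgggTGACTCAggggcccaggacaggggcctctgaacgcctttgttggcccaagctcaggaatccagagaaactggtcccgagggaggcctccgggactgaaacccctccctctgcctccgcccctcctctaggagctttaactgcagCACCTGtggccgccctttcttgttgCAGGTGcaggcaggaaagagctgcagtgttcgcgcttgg
Cldn3: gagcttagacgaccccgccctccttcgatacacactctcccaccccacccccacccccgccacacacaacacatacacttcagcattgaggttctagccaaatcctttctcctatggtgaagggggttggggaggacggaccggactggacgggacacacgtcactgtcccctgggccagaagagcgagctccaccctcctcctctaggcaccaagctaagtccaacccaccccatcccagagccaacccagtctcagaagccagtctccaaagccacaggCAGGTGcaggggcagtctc

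The *Cldn4* window held TGANTCA at 2 positions, 240 and 158 bases before the start, and the *Cldn3* window held it at 0 positions. Of 32851 mouse promoters of this length, 7.81% held TGANTCA at least once and 0.46% at 2 or more positions. CAGGTG was found at 2 positions for *Cldn4* and at 1 for *Cldn3*, and 20.2% of all promoters held it, 2.88% at 2 or more positions. Among the 9 members with a promoter sequence, which have 13 start sites between them, TGANTCA was present for 2 (*Cldn4* and *F11r*) and CAGGTG for 7. Of the other motifs searched, GGGCGG (Sp1) was present for 8 of the 9 and the grainyhead letters AACNNGTT for 0. Of all promoters, 35.7% held GGGCGG and 4.2% AACNNGTT. Members were counted if any of their start sites matched, whereas these percentages are per promoter, so the measures are not alike. A match of letters is a description of the sequence and not a measured binding site.

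The other members lie apart from this pair, except that *Ocln* (chr13:101266462-101322673, minus strand) and *Marveld2* (chr13:101365912-101386926, minus strand) are also neighbours, 43.2 kb apart. *Cldn7* lies at chr11:69778281-69781387 on the plus strand, *Cldn18* at chr9:99589880-99617686 on the minus strand and *Tjp1* at chr7:72441051-72516125 on the minus strand. *F11r* lies at chr1:173367666-173394734, *Cdh1* at chr8:109127251-109194146 and *Epcam* at chr17:88035319-88050446, all on the plus strand. FPKM are given per gene, so isoforms such as the lung form of *Cldn18* were not told apart. Annotated genes overlap *Cldn3* (*Wbscr25*), *Cldn18* (*Gm16004*) and *Marveld2* (*U6*), and whether reads were counted by strand is not given in the sources used here.

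The libraries differed in ways that bear on these genes. Values are FPKM, fragments scaled by exon length and by the mapped fragments of the library, and they summed to between 390141 and 549169 per library, with no read counts and an unknown depth. *Atg5* was listed at 6.01 to 12.5 FPKM in AT2-PBS, 9.97 to 11.1 in AT2-BLM, 6.72 to 10.1 in Atg5-/- AT2-PBS and 8.37 to 8.84 in Atg5-/- AT2-BLM, so the level of the whole gene overlapped between genotypes under PBS and was lower in all 3 Atg5-/- libraries under BLM. Reads from exons that Cre does not remove count in these values. AT2 markers were high throughout, the sum of 7 of them lying between 18259 and 32276 FPKM in every library, whereas *Sftpc*, the marker that defines the cell type, was listed at 0 in 11 of 12 libraries and was not used. Transcripts of 4 Y-linked genes summed to under 1 FPKM in 7 libraries and to over 10 in 5, and these kinds were mixed within 3 of the 4 groups, while all 3 Atg5-/- AT2-PBS libraries were of the first kind, although the methods name male mice. The Atg5-/- AT2-PBS libraries stood apart in markers of some other cells, while ciliated and endothelial sums overlapped those of AT2-PBS. Club cell markers summed to 23114 to 84612 FPKM there against 4921 to 11733 in AT2-PBS, and the 5 fibroblast markers to 87.0 to 97.4 against 3.49 to 12.6. Leukocyte markers other than *Lyz1* summed to 129 to 154 against 5.60 to 12.4, with *Cd68* alone at 101 to 119 FPKM in Atg5-/- AT2-PBS. With *Lyz1* included the leukocyte sums overlapped, at 1452 to 3539 FPKM in Atg5-/- AT2-PBS against 2458 to 5173 in AT2-PBS. The sum of 5 liver genes was 1470 to 2526 FPKM against 3.34 to 401.

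In uninjured AT2 cells the members fell into levels that differed by more than the spread between libraries. The claudins *Cldn3* and *Cldn18* led, and *Cldn4*, *Tjp1* and the strand companions were at the bottom. *Cldn3* had the highest mean of the 10 (938 ± 99.0 FPKM, SD, n = 3) and *Cldn18* followed (428 ± 31.4 FPKM, SD, n = 3), and no library of one overlapped a library of the other. *Cldn7*, *Epcam*, *Cdh1* and *F11r* had means of 166, 152, 125 and 113 FPKM, with neighbours in this order overlapping. *Marveld2* (7.10 ± 1.26 FPKM) and *Ocln* (6.83 ± 1.55 FPKM) also overlapped each other (SD, n = 3). *Cldn4* (3.19 ± 0.358 FPKM) and *Tjp1* (2.45 ± 1.09 FPKM) were lowest and overlapped each other (SD, n = 3). FPKM are scaled by length, but isoforms were not told apart and other genes overlap *Cldn3*, *Cldn18* and *Marveld2*. Levels of different genes can therefore be set beside each other only roughly.

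The order held in part across groups. *Cldn3*, *Cldn18* and *Cldn7* had the 3 highest means in each of the 4 groups, and *Cldn3* and *Cldn18* overlapped neither each other nor *Cldn7* in any group. *Tjp1* had the lowest mean in all 4. *Cldn4* was at position 9 of 10 in AT2-PBS and at position 7 in AT2-BLM, in Atg5-/- AT2-BLM and also in the uninjured Atg5-/- AT2-PBS. Only in AT2-BLM did its lowest library, at 52.9 FPKM, lie above every library of *Ocln*. Across all 12 libraries the highest value of *Cldn4* was 148 times the lowest, whereas this ratio lay between 1.69 for *Cldn3* and 4.65 for *Marveld2* for the other 9.

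**Figure D1:**
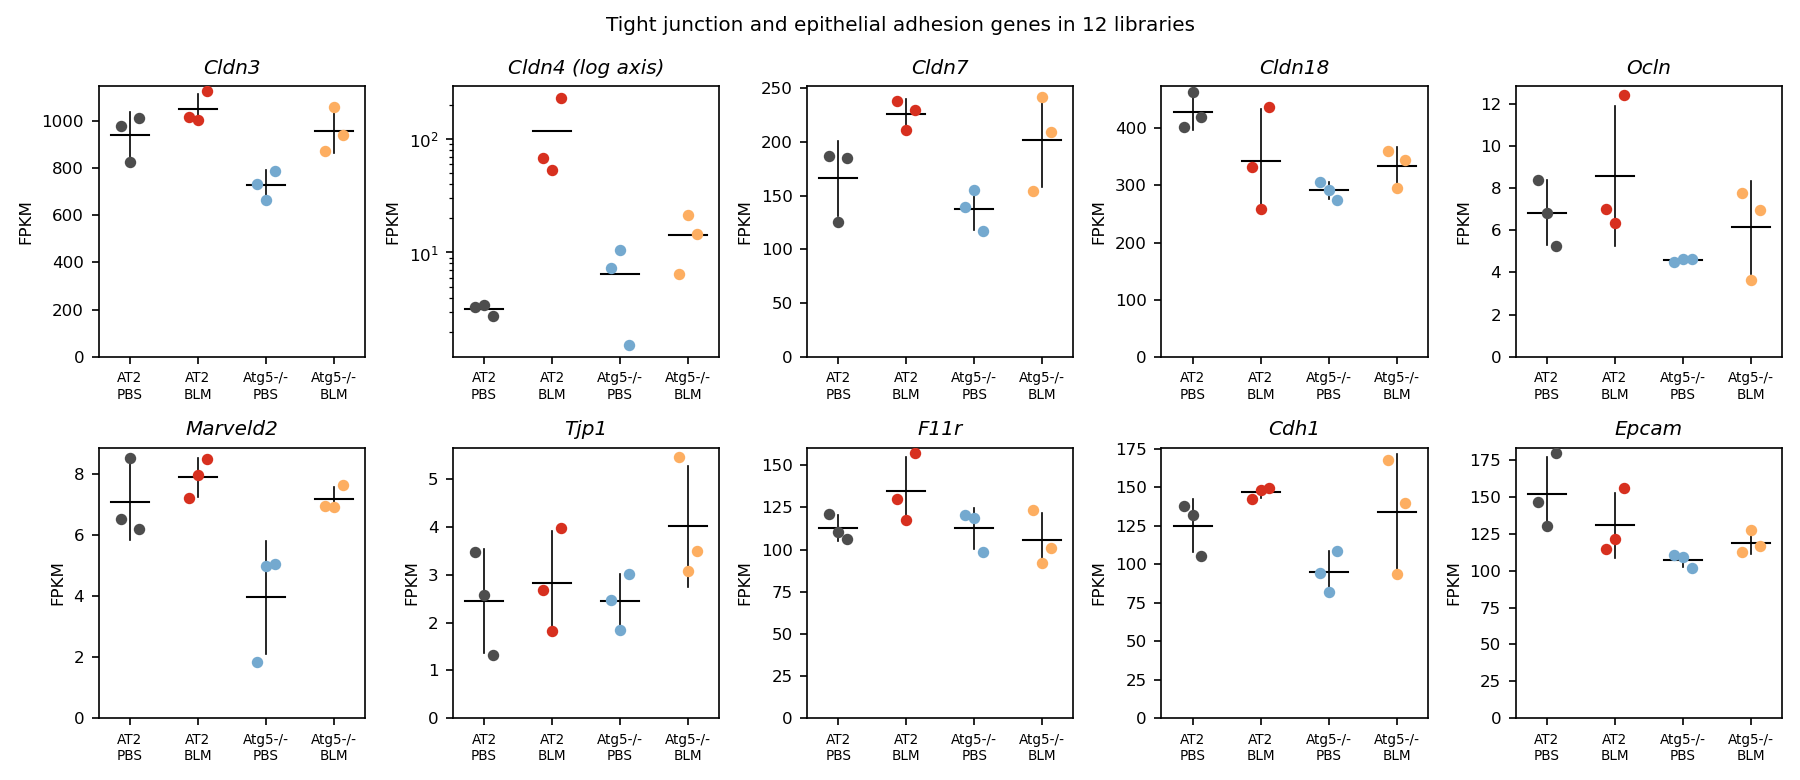
FPKM of the 10 genes in 12 libraries. Points are libraries, horizontal lines are group means and vertical lines are 1 SD (n = 3), with *Cldn4* on a log axis without SD and the other axes starting at 0. *Cldn4* lies between 52.9 and 228 FPKM in AT2-BLM and at 21.5 FPKM or less in every other library.

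BLM injury raised *Cldn4* in AT2 cells, and the other 9 members were not called. *Cldn4*, whose product is a sealing claudin, was at 3.34, 3.45 and 2.78 FPKM in AT2-PBS and at 68.7, 52.9 and 228 FPKM in AT2-BLM. The groups lay far apart, and AT2-BLM replicate 3 stood well above the other injured libraries. The log2 fold change was 4.51 (SE 0.61, 95% interval 3.18 to 5.84, adjusted p = 0.00112 from limma), higher in 3 of 3 libraries. By size it ranked 6 of 10675 genes tested. Without AT2-BLM replicate 3 the log2 fold change was 3.88, still called.

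Log2 fold changes here are on the log2(FPKM + 1) scale, where the added 1 shrinks the fold of genes near or below 1 FPKM. Genes were called, as the study did, where the fold change reached 1.4 and p before adjustment was under 0.05. By this rule 1 of 10 members was called between AT2-BLM and AT2-PBS, against 28.4% of all tested genes in either direction, 20.6% higher and 7.77% lower with BLM. The same member passed with the adjusted p in its place, as did 17.4% of all genes. The median log2 fold change was 0.20 over the members and 0.17 over all genes. An exact two-sided permutation test of 3 libraries against 3 cannot give a p under 0.1, so tests of single values were taken from the limma fit across genes. In sorted bulk samples fewer cells of a type and less RNA per cell cannot be told apart.

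The claudins of AT2 cells other than *Cldn4* moved little. *Cldn7* was at 187, 125 and 185 FPKM in AT2-PBS and at 238, 211 and 229 FPKM in AT2-BLM. Every injured library was above every uninjured one, with a log2 fold change of 0.47 (SE 0.20) that fell just short of the fold required. Ranges were also apart for 40.2% of all tested genes, 28.9% higher and 11.3% lower. *Cldn7* was called without AT2-PBS replicate 1 (0.57) or 3 (0.56) and without AT2-BLM replicate 2 (0.52).

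*Cldn18*, which encodes the claudin most particular to the alveolus, was at 402, 463 and 420 FPKM in AT2-PBS and at 333, 258 and 438 FPKM in AT2-BLM. AT2-BLM replicate 3 lay inside the uninjured range and the other injured libraries below it. The log2 fold change was -0.35 (SE 0.18, 95% interval -0.74 to 0.04), and *Cldn18* was called lower without AT2-BLM replicate 3 (-0.54) and under 3 other scalings. *Cldn3* had a log2 fold change of 0.16 (95% interval -0.17 to 0.49) beside its neighbour *Cldn4* and turned negative under those scalings.

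Of the strand companions, *Ocln* (occludin) had a log2 fold change of 0.26 (95% interval -0.35 to 0.86) and *Marveld2* (tricellulin) one of 0.14 (-0.42 to 0.71). *F11r*, the gene of junctional adhesion molecule A, had 0.25 (-0.09 to 0.59), and *Tjp1*, the gene of ZO-1, 0.16 (-0.47 to 0.79). *Cdh1* (E-cadherin), to which the study's qPCR values were normalized, was at 138, 132 and 105 FPKM in AT2-PBS and at 143, 148 and 149 FPKM in AT2-BLM. All 3 injured libraries were higher, by a log2 fold change of 0.24 (95% interval -0.20 to 0.67). *Epcam* had -0.22 (95% interval -0.55 to 0.12) in cells gated on its product.

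**Figure D2:**
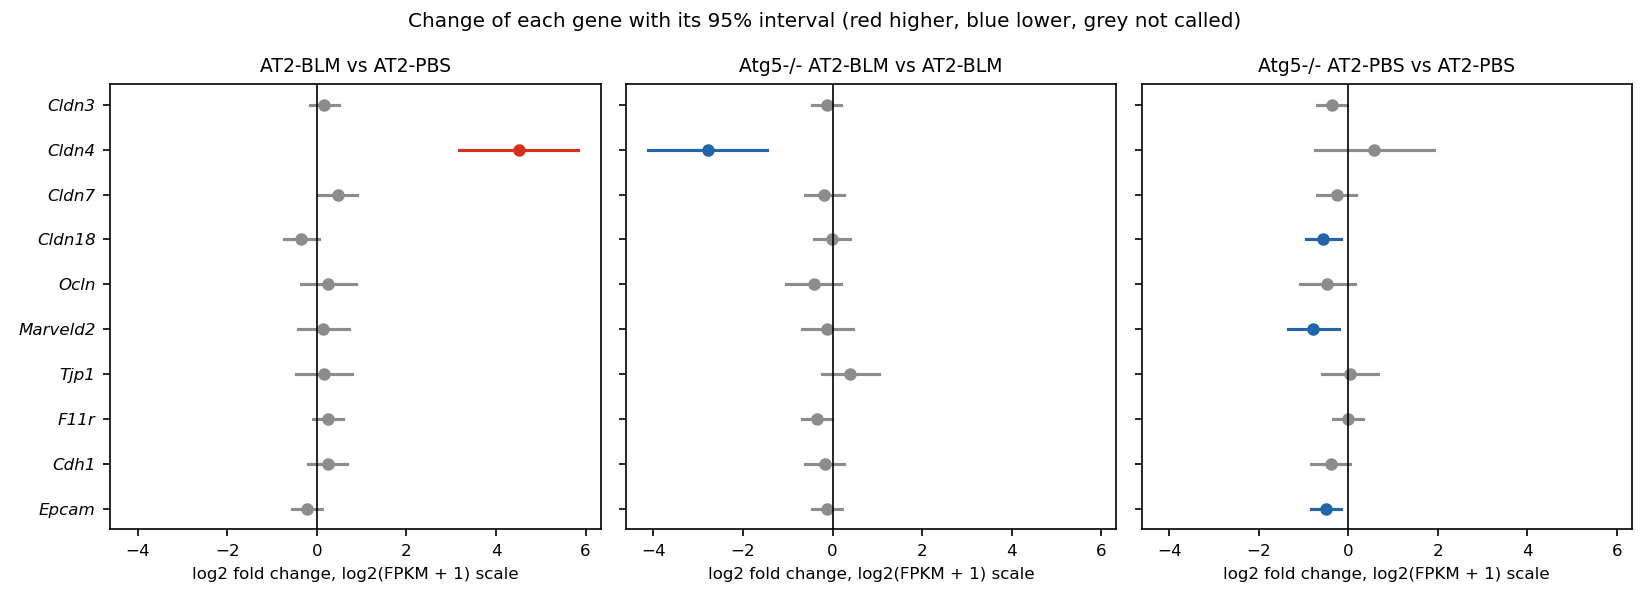
Log2 fold change of each gene on the log2(FPKM + 1) scale in 3 comparisons, with its 95% interval from limma. *Cldn4* is called higher with BLM (4.51) and lower with *Atg5* loss during BLM (-2.79), and *Cldn18*, *Marveld2* and *Epcam* are called lower with *Atg5* loss under PBS.

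Among the other junction and adhesion genes, BLM raised 14 and lowered 6 of the 61 tested, 20 in all, or 13 without AT2-BLM replicate 3. Their median log2 fold change was 0.19, beside 0.17 over all genes. Of all tested genes, 28.4% were called, 20.6% higher and 7.77% lower. The counts for parts of this list below stand beside the same shares.

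A pair of genes that act on EpCAM at the cell surface rose with BLM. *St14* encodes matriptase, a membrane protease that cleaves EpCAM, and *Spint1* encodes its inhibitor HAI-1. *St14* was at 24.6, 24.0 and 25.4 FPKM in AT2-PBS and at 43.2, 38.5 and 46.8 FPKM in AT2-BLM (log2 fold change 0.77, SE 0.16, adjusted p = 0.00881 from limma). *Spint1*, named after its values were seen, had a log2 fold change of 0.64, and the groups did not overlap for either gene. *Spint1* was not called without AT2-BLM replicate 3 (0.47) or with any of the 3 other scalings, nor *St14* with *Cdh1* scaling (0.53). *Prss8* and *Spint2*, the other protease and inhibitor of this list, had -0.06 and -0.10 and were not called.

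Of 25 tight junction genes tested beyond the members, 3 were called higher and 2 lower with BLM. *Cgn* (cingulin, a cytoplasmic plaque protein) was at 12.9, 10.2 and 7.87 FPKM in AT2-PBS and at 16.6, 15.1 and 25.6 FPKM in AT2-BLM (0.82 on the log2 scale). *Pard3*, the gene of a polarity protein that helps to place tight junctions, was at 5.36, 8.02 and 6.67 FPKM in AT2-PBS and at 1.61, 2.62 and 3.60 FPKM in AT2-BLM. Its log2 value fell by 1.11 with no overlap (SE 0.24, adjusted p = 0.0108 from limma). *Cldn10*, a claudin that is more abundant in airway than in alveolar epithelium, had -1.10 and was not called without AT2-PBS replicate 1 (-0.86) or AT2-BLM replicate 1 (-0.97). All 3 club cell markers were also lower with BLM, and their part in its value was not tested.

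Among 18 adherens junction and desmosome genes, 6 were called higher and 2 lower, with *Mllt4* (afadin, a link from nectins to actin) at -0.75. Among 10 epithelial regulators, 1 was higher and 2 lower, *Klf4* at -1.18 and *Klf5* at -0.62, both Krüppel-like factors of epithelia. *Klf4* was at 11.2, 1.07 and 2.79 FPKM in AT2-PBS and at 0.921, 1.04 and 1.13 FPKM in AT2-BLM, with overlap. Its call rested on AT2-PBS replicate 1 (-0.47 without it), and it was also lost without AT2-PBS replicate 3 and without any 1 of the AT2-BLM libraries (-1.31 to -1.14). Of 4 tested repressors and mesenchymal genes, 2 were higher, the intermediate filament gene *Vim* (1.62) and the matrix gene *Fn1* (1.28), and these are also expressed by fibroblasts and leukocytes. *Fn1* was not called without AT2-BLM replicate 3 (0.83) or AT2-PBS replicate 3 (1.14). Summed fibroblast markers were between 6.23 and 39.2 FPKM in AT2-BLM against 3.49 to 12.6 in AT2-PBS, and their part in these values was not tested. Of the other markers, 3 of 6 for alveolar type 1 cells, 3 of 5 for leukocytes, 1 of 2 for endothelium and 4 of 5 for liver were called higher with BLM. Of 7 AT2 markers, 1 was called higher and 2 lower, and 2 of 2 ciliated markers were called lower.

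**Figure D3:**
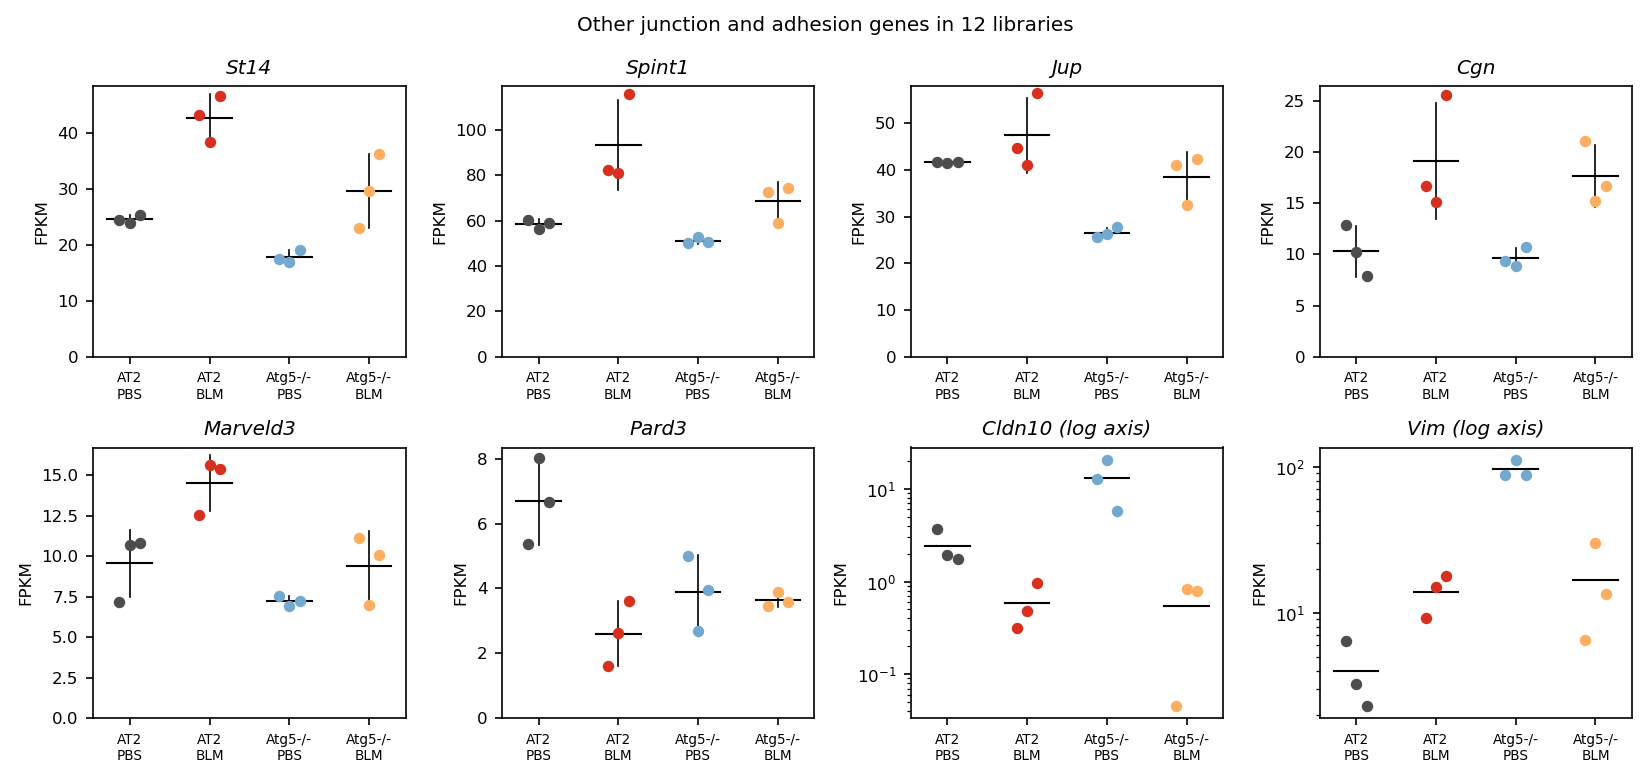
FPKM of 8 other junction and adhesion genes in 12 libraries, drawn as in the plot of the 10 members, with *Cldn10* and *Vim* on log axes. *St14* lies between 38.5 and 46.8 FPKM in AT2-BLM and between 23.0 and 36.2 FPKM in Atg5-/- AT2-BLM, and *Vim* lies at 87.8 FPKM or more in Atg5-/- AT2-PBS.

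With *Atg5* loss during BLM injury, *Cldn4* was lower and the other 9 members were not called. Its FPKM were 6.43, 21.5 and 14.6 in Atg5-/- AT2-BLM against 68.7, 52.9 and 228 in AT2-BLM. All 3 libraries were below the lowest AT2-BLM library. The log2 fold change was -2.79 (SE 0.61, 95% interval -4.12 to -1.46), the largest in size of 10675 genes tested. Its unadjusted p was 6.37e-04 and it did not pass the adjustment over all genes (adjusted p = 0.511 from limma, and 0.0686 to 0.977 over the other settings). Without AT2-BLM replicate 3 the log2 fold change was -2.15.

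The count of 1 of 10 stood against 5.16% of all tested genes called in either direction, 2.04% higher and 3.12% lower, while 0.00937% of genes, a single one, passed with the adjusted p. The median log2 fold change was -0.15 over the members and -0.05 over all genes. This comparison shares its AT2-BLM libraries with that of BLM and PBS, so the opposite signs of *Cldn4* are not independent of each other. Libraries with a Y-linked sum under 1 FPKM gave 52.9 and 68.7 FPKM of *Cldn4* in AT2-BLM, 6.43 in Atg5-/- AT2-BLM and 3.34 in AT2-PBS. Libraries with a sum over 10 gave 228, then 14.6 and 21.5, then 2.78 and 3.45. Summed type 1 cell markers were 2341 to 3432 FPKM in AT2-BLM and 2167 to 2554 in Atg5-/- AT2-BLM, with all 6 of these markers negative and 1 called lower, and their part in the difference was not tested.

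*F11r* had FPKM of 130, 118 and 157 in AT2-BLM and of 123, 91.9 and 101 in Atg5-/- AT2-BLM. The ranges overlapped in 1 library, and the log2 fold change of -0.35 (95% interval -0.69 to -0.01) was under the fold required. *Ocln* (-0.42, 95% interval -1.03 to 0.18) and *Tjp1* (0.40, -0.23 to 1.03) had wide intervals at their low FPKM. *Cldn3* (-0.13), *Cldn7* (-0.19), *Cldn18* (-0.01), *Cdh1* (-0.17), *Epcam* (-0.12) and *Marveld2* (-0.12) all had intervals that included 0.

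Among the other junction and adhesion genes, 5 of 61 were called lower and 0 higher with *Atg5* loss during BLM in limma. Of all tested genes, 3.12% were called lower and 2.04% higher. The count of 5 was 3 without AT2-BLM replicate 3 or without Atg5-/- AT2-BLM replicate 2, and 8 without AT2-BLM replicate 1. None of the 5 passed the adjustment, and each lost its call without at least 1 library. *St14* was at 23.0, 29.6 and 36.2 FPKM, below the 38.5 FPKM of the lowest AT2-BLM library (-0.54, SE 0.16), and was not called without Atg5-/- AT2-BLM replicate 1 (-0.37) or replicate 3 of AT2-BLM (-0.47), or with any of the 3 other scalings. *Cldn23*, a claudin of surface epithelia, had -0.79 and was not called without Atg5-/- AT2-BLM replicate 2 (-0.65) or replicates 1 (-0.75) or 3 (-0.68) of AT2-BLM, each left out alone. *Perp*, the gene of a desmosomal p53 target, had -0.77, with -0.40 without AT2-BLM replicate 3 and -0.74 without Atg5-/- AT2-BLM replicate 3, neither of them called. *Marveld3*, a relative of occludin, had -0.59, and -0.41 without Atg5-/- AT2-BLM replicate 2, not called. The ranges of all 5 were apart, as were those of 13.4% of all tested genes, 4.91% higher and 8.49% lower.

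The difference between the BLM effects of the genotypes was tested directly. *Cldn4* rose by 4.51 with BLM in AT2 cells and had a log2 fold change of 1.14 (95% interval -0.19 to 2.47, not called) in Atg5-/- AT2 cells, which was called without Atg5-/- AT2-PBS replicate 2 or Atg5-/- AT2-BLM replicate 1 (1.58 for each). The difference was -3.37 on the log2 scale (SE 0.86, adjusted p = 0.034 from limma), and it lay between -4.02 and -2.74 with each library left out. It was the 1 member of 10 called, against 20.2% of all tested genes, 5.02% positive and 15.2% negative, and 7.89% with the adjusted p. Without AT2-BLM replicate 3, 3 members were called. For *St14* (-0.10, SE 0.23) the difference was not called. The test includes the Atg5-/- AT2-PBS libraries, which stood apart in markers of some other cells. In the same test 5 of 5 liver, 4 of 4 fibroblast and 4 of 5 leukocyte markers were called negative. So were 2 of 3 club cell, 1 of 2 ciliated and 2 of 6 type 1 cell markers. The leukocyte markers *Ptprc* and *Itgam* passed the filter only with the Atg5-/- AT2-PBS libraries, so they are no independent support. Of 7 AT2 markers, 3 were called positive and 1 negative. The part of all these markers in the *Cldn4* difference was not tested. Without injury the Atg5-/- libraries were at 7.32, 10.5 and 1.55 FPKM of *Cldn4*, which overlaps the AT2-PBS range on both sides.

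In Atg5-/- AT2 cells, BLM was followed by higher *Cldn7* and *Marveld2*, 2 of 10 members, against 18.4% of all tested genes, 7.66% higher and 10.7% lower. *Cldn7* was at 140, 155 and 117 FPKM under PBS and at 154, 242 and 209 FPKM under BLM, with overlap in 1 library (0.54, SE 0.20). *Marveld2* was at 1.84, 5.01 and 5.05 FPKM under PBS and at 6.98, 6.94 and 7.66 FPKM under BLM, without overlap (0.80, SE 0.26). Neither passed the adjustment (adjusted p = 0.134 and 0.0803 from limma), which 8.65% of all genes passed, and with *Cdh1* scaling neither was called (0.0768 and 0.43). In this comparison 3 of 3 club cell, 2 of 2 ciliated and 4 of 4 fibroblast markers were called lower. So were 3 of 5 liver and 4 of 5 leukocyte markers, though *Ptprc* and *Itgam* passed the filter only with the Atg5-/- AT2-PBS libraries. Called higher were 5 of 6 type 1 cell and 1 of 7 AT2 markers. The part of all these markers in these values was not tested. The median log2 fold change was 0.43 over the members and 0.06 over all genes. *Marveld2* was not called without Atg5-/- AT2-PBS replicate 1 (0.44), the lowest library. *Cldn3* (0.39), *Cdh1* (0.46), *Tjp1* (0.53), *Ocln* (0.30), *Cldn18* (0.19) and *Epcam* (0.15) were positive and *F11r* (-0.10) negative, none of them called. Ranges were apart for *Cldn3*, *Tjp1*, *Epcam* and *Marveld2*, 4 of 10, against 24.9% of all genes, 13.1% higher and 11.8% lower. Of 61 other junction genes, 14 were higher and 7 lower, or 13 in all without Atg5-/- AT2-PBS replicate 2.

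*Atg5* loss without injury was accompanied by lower values of several members. *Cldn18*, *Epcam* and *Marveld2* were called, 3 of 10, and 8 of 10 log2 fold changes were negative. Over all tested genes 19.3% were called, 14.1% higher and 5.16% lower, and 11.2% passed with the adjusted p. The median was -0.38 over the members and 0.02 over all genes. *Cldn18* had FPKM of 306, 292 and 275 in Atg5-/- AT2-PBS against 402, 463 and 420 in AT2-PBS. The groups were apart, with a log2 fold change of -0.55 (SE 0.18, adjusted p = 0.0739 from limma).

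*Epcam* was at 110, 109 and 102 FPKM in Atg5-/- AT2-PBS against 146, 130 and 179 FPKM in AT2-PBS. The groups did not overlap, and the log2 fold change was -0.49 (SE 0.15, adjusted p = 0.067 from limma). It was no longer called without AT2-PBS replicate 3 (-0.37) or without Atg5-/- AT2-PBS replicate 3 (-0.45). *Marveld2* was at 1.84, 5.01 and 5.05 FPKM against 6.54, 8.55 and 6.22 FPKM, also apart (-0.78, SE 0.26, adjusted p = 0.0835 from limma). Its lowest library, Atg5-/- AT2-PBS replicate 1, carried the call, and without it the log2 fold change was -0.42.

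*Cldn3* was at 730, 665 and 789 FPKM against 977, 825 and 1011 FPKM, with the groups apart. Its log2 fold change of -0.36 (95% interval -0.69 to -0.03) was under the fold required. *Ocln*, at 4.47, 4.63 and 4.65 FPKM against 8.38, 6.83 and 5.27 FPKM, was also apart and not called (-0.47, SE 0.28). Ranges were apart and lower for 5 of 10 members, and apart for 28.9% of all tested genes, 18.1% higher and 10.8% lower. *Cdh1* had -0.39 (95% interval -0.83 to 0.04), *Cldn7* -0.26, *Tjp1* 0.03 and *F11r* -0.00454. None of the 10 had an adjusted p under 0.05, and 4 of 10 had an unadjusted p under it in limma. Other settings passed the adjustment. With quantile scaling the adjusted p from limma was 0.00485 for *Cldn3*, 0.00415 for *Epcam*, 0.0328 for *Marveld2* and 0.0492 for *Cldn18*. That scaling also moved the median log2 fold change over all genes from 0.02 to -0.16. With median-ratio scaling it was 0.0331 for *Cldn18* and 0.0354 for *Epcam*. With the compared groups only it was 0.0211 for *Cldn18*, and without AT2-PBS replicate 2 it was 0.0491 for *Epcam*.

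These lower values went with changes in markers of other cells and in AT2 markers. *Abca3*, *Lamp3* and *Etv5*, which mark AT2 cells, were called lower in the same libraries (-0.63, -0.66 and -0.65), and 6 of 7 AT2 markers had negative log2 fold changes. The other AT2 marker, *Sftpb*, was called higher. It was at 9454, 15714 and 9349 FPKM in Atg5-/- AT2-PBS against 1777, 11572 and 2590 FPKM in AT2-PBS, with overlap. All 3 club cell, 4 of 5 leukocyte, 4 of 4 fibroblast and 5 of 5 liver markers tested were called higher. Among the leukocyte markers, *Ptprc* and *Itgam* passed the filter only with these Atg5-/- AT2-PBS libraries, so their calls are no independent support. Scaled to *Cdh1* in each library, which had -0.39 itself and is then left out, 0 of the other 9 members were called, with *Cldn18* at -0.16, *Epcam* at -0.10 and *Marveld2* at -0.46. With the Y-linked level as a covariate, *Cldn18* (-0.44) and *Epcam* (-0.38) were not called. The part of other cells in these values was not tested.

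Of the other junction and adhesion genes, 7 of 61 were higher and 7 lower with *Atg5* loss under PBS, with a median of -0.20. Over all tested genes, 14.1% were called higher and 5.16% lower. The total of 14 junction genes was 8 without Atg5-/- AT2-PBS replicate 1 and 9 without replicate 2. The 7 higher were *Vim*, *Fn1* (2.02), *Cldn10*, *Cldn1*, *Snai1*, *Cldn15* (0.97) and *Twist2* (0.84), of which the last pair was named after its values were seen. *Vim* was at 88.3, 111 and 87.8 FPKM in Atg5-/- AT2-PBS against 6.42, 3.25 and 2.29 FPKM in AT2-PBS (4.36, SE 0.44, adjusted p = 5.78e-05 from limma). *Cldn10* was at 12.7, 20.6 and 5.75 FPKM against 3.68, 1.92 and 1.75 FPKM (1.91), in the libraries where the club cell gene *Scgb1a1* was highest. *Cldn1* (1.37) was at 1.44 to 2.10 FPKM against 0.19 or less, and at 0.38 or less in every other library. *Cldn1*, *Snai1*, *Cldn15* and *Twist2* passed the filter only with the Atg5-/- AT2-PBS libraries, so their calls there are no independent support. *Snai1*, a repressor of *Cdh1*, had 1.17. The groups were apart for 6 of these 7 and overlapped for *Cldn15*. *Snai1* was not called without Atg5-/- AT2-PBS replicate 2 (0.88), nor *Cldn15* without replicate 1 (0.62).

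Among the 7 lower genes, *Jup* (plakoglobin, a desmosomal and adherens junction protein) was at 25.6, 26.2 and 27.7 FPKM against 41.6, 41.5 and 41.8 FPKM. Its log2 value fell by 0.63 (SE 0.15, adjusted p = 0.013 from limma). *Pard3* (-0.67), *Ppl* (periplakin, -0.58), *Cldn8* (-0.56) and *Cldn12* (-0.56) did not pass the adjustment, and each lost its call without at least 1 library, the value then lying between -0.55 and -0.44. These 4 and *Jup* (-0.25) were not called with *Cdh1* scaling.

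The makeup of claudin transcripts was computed as each claudin's share of the FPKM of all 23 listed claudins. *Cldn3*, *Cldn18*, *Cldn7* and *Cldn4* together made up nearly all of it, the other claudins taking at most 3.75% in any library. *Cldn3* took 57.4% to 61.8% in AT2-PBS and 54.9% to 64.9% in AT2-BLM, and the ranges of all 4 groups overlapped. *Cldn4* took 0.170% to 0.240% in AT2-PBS and 3.42%, 4.09% and 11.1% in AT2-BLM. In Atg5-/- AT2-BLM its share was 0.456% to 1.31%, below every AT2-BLM library and above every AT2-PBS library. That range overlapped the 0.127% to 0.901% of Atg5-/- AT2-PBS. *Cldn18* took 25.3% to 32.2% in AT2-PBS and 16.7% to 21.4% in AT2-BLM, without overlap, and 18.1% to 25.5% in Atg5-/- AT2-BLM. Shares within a library depend on each other, and no test was made on them.

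**Figure D4:**
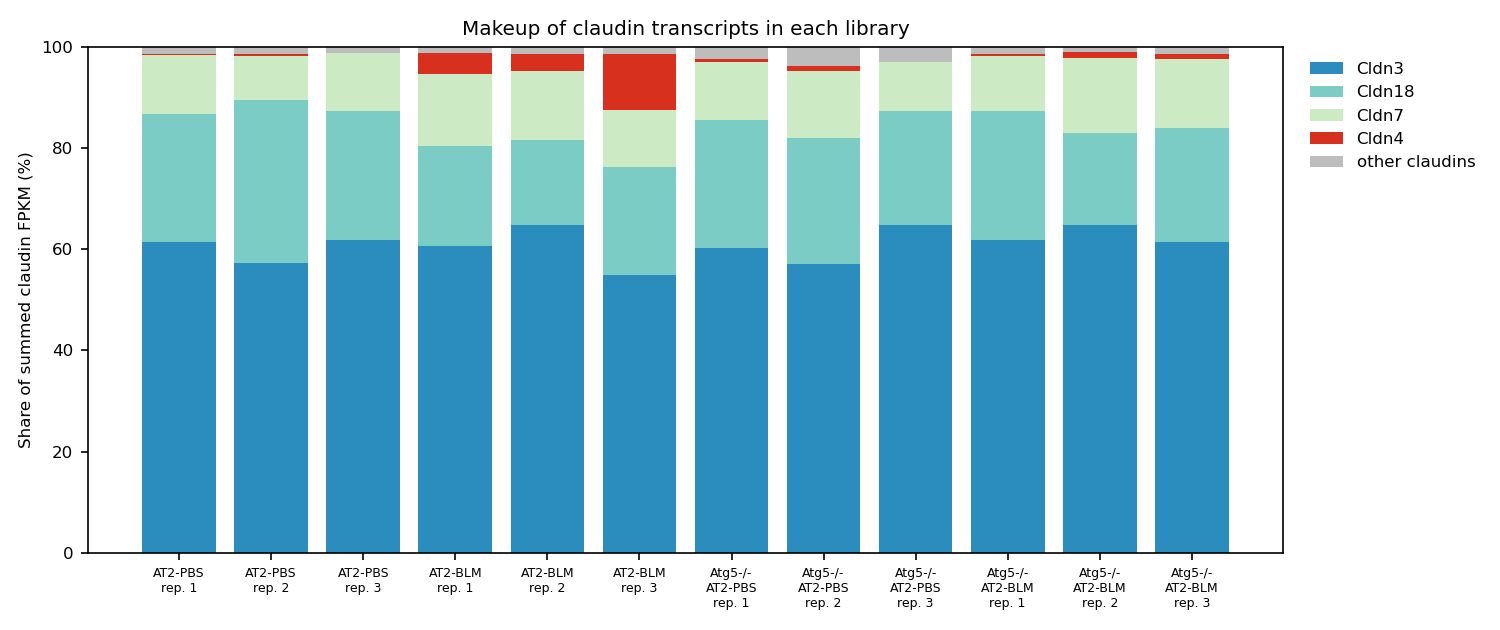
Share of summed claudin FPKM (%) taken by each of 4 claudins and by the other 19 in 12 libraries. The *Cldn4* share is 3.42% to 11.1% in AT2-BLM and 1.31% or less elsewhere, and the *Cldn3* share stays between 54.9% and 64.9%.

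The genes most like 3 members over the 12 libraries were found by Pearson's r of log2(FPKM + 1). For *Cldn4* they were *Ccdc122* (r = 0.959), *Vps29* (0.954) and *Gnb4* (0.953). *Vps29* was at 13.7 to 15.0 FPKM in AT2-PBS and at 20.5 to 26.0 FPKM in AT2-BLM. For *Cldn18* they were *Ptrf* (0.885), *Lurap1l* (0.860) and *Nedd4* (0.854), and for *Cdh1* they were *Qrich1* (0.979), *Arcn1* (0.960) and *Stau1* (0.956). The 12 points share their groups and library composition, so r is given as a description.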

How the data were processed

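Libraries of sorted AT2 cells were made with an Illumina TruSeq stranded mRNA kit. The authors trimmed reads with Trimmomatic, aligned them to mm9 and deposited FPKM per gene from Cufflinks. The study's text names STAR as the aligner and the submitters' processing notes name HISAT2, and the text adds a DESeq normalization without saying whether the deposited FPKM include it. Some accessions in the table are newer than mm9. No counts were used, so depth is unknown and no counting interval is given.

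The filter kept 10675 of 21878 genes, those reaching an FPKM of 1 in 3 or more of 12 libraries, which were tested on log2(FPKM + 1) with limma 3.58.1 in R 4.3.3 (lmFit, eBayes with a mean-variance trend), all 12 libraries in 1 fit, with Benjamini-Hochberg adjustment over all tested genes. Intervals are at 95%. Calls needed a 1.4-fold change and p under 0.05. The members and lists were chosen with earlier results of these data known.

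Named genes were the 10 members and, from the other junction lists and the first 3 comparisons, up to 5 called genes that rose and 5 that fell by size. *Spint1*, *Prss8*, *Spint2*, *Twist2* and *Cldn15* lie outside this rule. One gene that the rule names is counted in the lists and not reported here. The marker lists were of AT2, type 1, club, ciliated, leukocyte, endothelial, fibroblast, liver and Y-linked genes. Summed ciliated markers were 23.8 to 38.8 FPKM in AT2-PBS and 21.6 to 44.2 in Atg5-/- AT2-PBS, and endothelial ones 1.70 to 14.4 and 3.75 to 31.9.

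Promoters were RefSeq sequences (GRCm38.p6), with 13 entries for 9 of 10 members. The 11 motifs searched on both strands were TGANTCA for AP-1, CAGGTG for Snail and Zeb, GGGCGG for Sp1 and the longer GGGGCGGGG that holds it, AACNNGTT for grainyhead factors and the narrower AACCGGTT within it, GGAATG for TEAD factors, AGGAAG for Ets factors, TATAAA for the TATA box, CAAGTG for Nkx2-1 and CACCC for Krüppel-like factors. On simulated data (10328 genes passing the filter), the fit called 97.0% of 100 genes changed 2-fold and 100.0% of 100 changed 4-fold in AT2-BLM against AT2-PBS. In Atg5-/- AT2-PBS against AT2-PBS, where no change was simulated, it called 3.25% of 10328. The changed genes were drawn only from those above a set mean level. *Ocln*, *Marveld2* and *Tjp1* lie below that level, so the shares for changed genes do not cover them or other low genes.

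Alternatives were a pseudocount of 0.1, no filter, the compared groups only, a replicate block, no trend, a Y-linked covariate, 3 scalings (quantile, median-ratio and to *Cdh1*), the adjusted p in place of p, a 2-fold threshold and each library left out. Python 3.11.15 with matplotlib 3.10.9 made the plots.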

Additional observations from a re-analysis of the deposited data

Results flagged for a closer look

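The response of *Cldn4* to BLM differed between the genotypes by a test of the difference itself. In AT2 cells *Cldn4* went from 3.19 ± 0.358 to 117 ± 97.0 FPKM (SD, n = 3), and in Atg5-/- AT2 cells from 6.46 ± 4.54 to 14.2 ± 7.54 FPKM (SD, n = 3). The difference was -3.37 on the log2 scale (SE 0.86, adjusted p = 0.034 from limma). Over 21 other settings it stayed between -4.30 and -2.74, with an adjusted p between 0.0115 and 0.105 from limma. AT2-BLM replicate 3, at 228 FPKM, was the highest library, and the difference was -2.74 without it. In the same test 5 of 5 liver (median -6.02), 4 of 4 fibroblast (-3.35) and 4 of 5 leukocyte (-2.38) markers were called negative. So were 2 of 3 club cell (-2.76), 1 of 2 ciliated (-0.50) and 2 of 6 type 1 cell (-0.23) markers. The leukocyte markers *Ptprc* and *Itgam* passed the filter only with the Atg5-/- AT2-PBS libraries. Those libraries stood apart in markers of some other cells. Of 7 AT2 markers (median 0.70), 3 were called positive and 1 negative. The sum of Y-linked transcripts also varied between libraries. Their part in the difference was not tested.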

How the results depend on the processing

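*Cldn4* kept its direction in the BLM effect, in the *Atg5* effect under BLM and in their difference under each of the alternatives run. Of 905 member values recomputed, 804 kept direction and side of the threshold, 27 lost and 30 gained the call, and 44 reversed. Of 28 called values of other junction genes in the first 3 comparisons (those the naming rule takes and 3 more), recomputed under the same alternatives after the data were seen, 0 reversed and 15 lost the call without at least 1 library. Fits in which a gene fell below the filter are not in this count. *Cldn1* did so without any 1 of the Atg5-/- AT2-PBS libraries, and *Twist2* without replicate 1 or replicate 2 of that group. Unless said otherwise, the cause of a change was not tested. With no read counts, depth could not be used to weigh any value, and 3 libraries per group limit precision.

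The labels do not say whether replicate numbers pair the libraries, and correlations with 3 libraries per group cannot settle it. Same-numbered libraries correlated with r from -0.239 to 0.227, and 0 to 4 of 6 matched best with their own number. The 4 of 6 were for AT2-BLM and AT2-PBS, with r from 0.0451 to 0.191. With the replicate block, 1, 1, 3, 2 and 1 members were called in the BLM effect, the *Atg5* effect under BLM, the *Atg5* effect under PBS, the BLM effect in Atg5-/- cells and the difference, the same counts as without it, and 19, 5, 13, 21 and 10 other junction genes against 20, 5, 14, 21 and 12.

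Counts with *Cdh1* scaling are over the other 9 members. Members called in the BLM effect were 2 with quantile, median-ratio or *Cdh1* scaling and 2 with the Y-linked covariate. Under the adjusted p they were 0 for the *Atg5* effect under BLM, 0 for that under PBS and 0 for BLM in Atg5-/- cells, and with a 2-fold threshold 0 in the last pair. The *Atg5* effect under PBS had 5 with quantile and 0 with *Cdh1* scaling, BLM in Atg5-/- cells 1 with median-ratio and 1 with *Cdh1* scaling (*F11r*, lower at -0.56, and neither *Cldn7* nor *Marveld2*), and the difference 5 with quantile and 2 with median-ratio scaling. Of the other junction genes, the BLM effect called 13 with quantile or *Cdh1* scaling, 10 with the adjusted p and 6 with a 2-fold threshold. The *Atg5* effect under BLM called 1 with *Cdh1* scaling, 0 with the adjusted p and 0 with a 2-fold threshold, and that under PBS 26 with quantile scaling, 5 with the adjusted p and 5 with a 2-fold threshold. BLM in Atg5-/- cells called 13 with *Cdh1* scaling, 8 with the adjusted p and 6 with a 2-fold threshold, and the difference 3 with the adjusted p.

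Log2 fold changes reversed as follows. In the BLM effect, *Cldn3* was -0.15 with quantile, -0.0121 with median-ratio and -0.0750 with *Cdh1* scaling, and *Marveld2* -0.0456, -0.0119 and -0.0662. In the *Atg5* effect under BLM, *Cldn18* was 0.12, 0.0402 and 0.16 under those scalings, and with *Cdh1* scaling *Cldn3* was 0.0390, *Epcam* 0.0472 and *Marveld2* 0.0385. Under PBS, *Cdh1* scaling gave *Cldn3* 0.0326, *Cldn7* 0.14 and *F11r* 0.39, and *Tjp1* was -0.21 with quantile scaling and -0.0571 with the Y-linked covariate. For BLM in Atg5-/- cells, *Cdh1* scaling gave *Cldn3* -0.0686, *Cldn18* -0.27, *Ocln* -0.10 and *Epcam* -0.31. In the difference, *Cldn7* was -0.15 with *Cdh1* scaling and -0.00665 with the Y-linked covariate, and *Ocln* -0.15 with *Cdh1* scaling.

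With each library left out, members called ranged from 1 to 2 in the BLM effect, 1 to 3 for BLM in Atg5-/- cells and 1 to 3 in the difference, and other junction genes from 13 to 20, 3 to 8 (*Atg5* effect under BLM), 8 to 17 (under PBS) and 13 to 27 (BLM in Atg5-/- cells). *Ocln* ranged from -0.0128 to 0.42 and *Tjp1* from -0.10 to 0.37 in the BLM effect. In the *Atg5* effect under BLM, *Cldn18* ranged from -0.20 to 0.18, *Cdh1* from -0.35 to 0.0634 and *Epcam* from -0.21 to 0.00760. Under PBS, *Tjp1* ranged from -0.23 to 0.25 and *F11r* from -0.0550 to 0.0860, and in the difference *Cldn7* from -0.0731 to 0.26 and *Ocln* from -0.13 to 0.33.

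Scaling moved the split of higher and lower calls over all genes. It was 2202 to 829 in the BLM effect, and 1320 to 1371 with quantile, 1467 to 1303 with median-ratio and 986 to 1288 with *Cdh1* scaling. For *Atg5* under BLM it was 218 to 333, and 268 to 261 with median-ratio and 355 to 90 with *Cdh1* scaling. Under PBS it was 1507 to 551, and 1208 to 1493 with quantile and 2731 to 79 with *Cdh1* scaling, whose median over all genes was 0.34 instead of 0.02. For BLM in Atg5-/- cells it was 818 to 1144, and 118 to 2444 with *Cdh1* scaling. For the difference it was 536 to 1620, and 1331 to 1177 with quantile and 212 to 1795 with *Cdh1* scaling.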
